A study of Mus musculus with 16 samples.

Results

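A set of 6 genes that encode small GTPases or proteins acting on them, Rhobtb1, Rhou, Rasgef1b, St5, Dlc1 and Rassf3, was followed through 16 mouse liver RNA-seq libraries. They were taken by symbol from the 41585 rows of the read count table, and all 6 were found and passed the filter on low counts, which left 13470 genes. The genes had been picked because their levels differed between the genotypes in these same libraries. Their genotype differences are therefore given as a description, with no test, and support nothing. The label of the set is broad, since Rhobtb1 and Rhou are GTPases themselves and the other 4 act on or bind GTPases.

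The study asked what human CYP2B6, a liver cytochrome P450 of drug and lipid metabolism, does in diet-induced obesity. The 4 groups, with 4 libraries each, were hCYP2B6-Tg females, Cyp2b-null females, hCYP2B6-Tg males and Cyp2b-null males. All mice were C57BL/6 and ate a diet with 60% fat for 16 weeks, so no group on a standard diet enters any comparison. The hCYP2B6-Tg mice carry the human gene and the Cyp2b-null mice lack mouse Cyp2b genes. Counts of the mouse Cyp2b genes were low in both genotypes, with a sum of at most 80 in any library, as given below. The labels used here do not give the promoter of the transgene, the mouse genes deleted, the age of the mice, or whether each library is a separate animal, so p-values measure the spread between libraries, which may be partly technical.

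Libraries held 5584587 to 9672708 counts. The row of the transgene was not analysed here. The 5 mouse Cyp2b rows together had 15 to 44 counts per library in hCYP2B6-Tg females, against 3 to 9 in Cyp2b-null females. In males they had 7 to 80 counts in hCYP2B6-Tg livers, against 1 to 8 in Cyp2b-null livers, and the ranges overlapped. Xist and Ddx3y matched the labelled sex in all 16 libraries. The 7 hepatocyte markers (Alb, Ttr, Apoa1 and others) were present in every library and summed to 110700 to 140100 CPM (counts scaled to a common library size). Cyp2b-null male 4 stood apart by markers of bile duct and smooth muscle cells, with sums of 56.7 and 34.5 CPM against at most 8.53 and 12.3 CPM in the other 15 libraries, and by 159 counts of the pancreatic gene Ctrb1. hCYP2B6-Tg male 4 had the highest level of Cfd (adipsin), 29.9 CPM, while the other 4 fat cell markers had 1 to 12 counts each over all 16 libraries.

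Small GTPases are switches that are active when bound to GTP and inactive when bound to GDP. Guanine nucleotide exchange factors load them with GTP, GTPase-activating proteins (GAPs) speed the hydrolysis that turns them off, and effectors bind the loaded form. The branch of RhoA, Rac1 and Cdc42 (the RhoA family) controls actin, cell shape and adhesion, the Ras and Rap branch controls growth signals and adhesion, and the Rab branch controls vesicle traffic. In liver these proteins bear on bile canaliculi, the transport of lipoproteins and the contractility of stellate cells.

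Rhobtb1 lies on chr10:69151058-69291791 (plus strand) and Rassf3 on chr10:121410350-121476250 (minus strand) of the build GRCm38.p6. Rhou lies on chr8:123653929-123663880 (plus) and Dlc1 on chr8:36567739-36953184 (minus). Rasgef1b lies on chr5:99217420-99252927 (minus) and St5, listed by RefSeq as Denn2b, on chr7:109523911-109703718 (minus). RefSeq promoter windows of the same build matched Rasgef1b, Rhobtb1 (with 3 starts), Rhou and St5. The windows of Rhobtb1 and St5 lie inside the gene spans given above, so their starts are internal. The 5′ ends of these spans had no window. The starts of Rhobtb1 are numbered 1 to 3 among the windows found. The 250 bases before the start are shown for Rasgef1b and for start 1 of Rhobtb1, because these genes had the widest genotype differences in males. They are written 5′ to 3′ on the strand of the gene. Capitals mark CGTCA, the reverse complement of TGACG, the core of the cyclic AMP response element, 114 bases before the start of Rasgef1b.
Rasgef1b, chr5:99252928-99253177, minus strand: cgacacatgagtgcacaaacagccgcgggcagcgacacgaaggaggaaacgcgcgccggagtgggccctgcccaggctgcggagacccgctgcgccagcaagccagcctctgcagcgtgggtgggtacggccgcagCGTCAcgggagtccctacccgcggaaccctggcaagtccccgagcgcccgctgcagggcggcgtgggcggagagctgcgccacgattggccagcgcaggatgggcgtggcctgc
Rhobtb1, start 1, chr10:69208302-69208551, plus strand: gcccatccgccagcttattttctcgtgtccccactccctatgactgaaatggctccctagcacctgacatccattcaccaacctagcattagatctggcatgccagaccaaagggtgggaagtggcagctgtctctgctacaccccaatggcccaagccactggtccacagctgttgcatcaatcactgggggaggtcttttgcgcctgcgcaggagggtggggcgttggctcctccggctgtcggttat

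For description, 5 motifs were searched on both strands of these windows: the E-box (CACGTG), the cyclic AMP core given above, the STAT element (TTCNNNGAA), the TEAD element (GGAATG) and the CArG box. None overlapped another in the windows of the 4 genes. The window of the second start of Rhobtb1 held an E-box and that of the third start held TGACG on the minus strand. The window of the second start overlaps exon sequence of Rhobtb1, and that of the third overlaps exon sequence of Rhobtb1 and A930033H14Rik. Both are given here in 30 bases each with the motif in capitals.
Rhobtb1, start 2, chr10:69212578-69212607: agagccagcccgCACGTGcagcgcccaggg
Rhobtb1, start 3, chr10:69213040-69213069: ccaaggctgctcaCGTCAcggtggagagag
The St5 window, which lies inside the gene and overlaps exon sequence of St5, held GGAATG 138 bases before that internal start. The Rhou window held none of the 5. Of all 32817 mouse windows of this length, 6.02% held CACGTG, 17.7% TGACG, 7.01% TTCNNNGAA, 12.6% GGAATG and 1.47% the CArG box. A match describes letters and shows no binding.

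Rhobtb1 encodes an atypical RhoA-family protein with BTB domains that serves as a substrate adaptor of the CUL3 ubiquitin ligase. In hCYP2B6-Tg males it had 79.9, 69.1, 68.5 and 71.6 CPM (libraries 2 to 5), against 44.6, 47.2, 42.3 and 38.4 CPM in Cyp2b-null males (libraries 1 to 4). Every hCYP2B6-Tg male was above every Cyp2b-null male, a separation in this direction that 2.40% of all tested genes showed. The fold change was 1.67, or 0.74 ± 0.11 on the log2 scale (± is the standard error of the fit). In females it had 63.2, 79.7, 51.5 and 65.4 CPM in hCYP2B6-Tg livers (1, 2, 4 and 5), against 55.8, 51.9, 61.9 and 55.1 CPM in Cyp2b-null livers (1, 3, 4 and 5). The female groups overlapped, with a log2 fold change of 0.21 ± 0.11. Over the 4 groups the order was hCYP2B6-Tg males, hCYP2B6-Tg females, Cyp2b-null females and Cyp2b-null males, and the first 3 overlapped their neighbours while Cyp2b-null males lay below all other libraries. Without Cyp2b-null male 4 the male difference was 0.70, and over the 16 fits that each left out a library it was 0.70 to 0.80.

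Rasgef1b encodes an exchange factor that acts on Rap2 GTPases and is known as a gene induced by Toll-like receptors in macrophages. It was the least abundant of the 6, with 28 to 131 counts per library. It had 11.8, 13.4, 12.0 and 14.0 CPM in hCYP2B6-Tg males, against 5.06, 7.70, 5.01 and 6.33 CPM in Cyp2b-null males. The male groups were apart, in a direction in which 2.40% of tested genes separated, by a fold change of 2.11 (log2 1.08 ± 0.18). In females the hCYP2B6-Tg livers had 13.0, 12.2, 13.0 and 12.0 CPM, against 19.7, 11.5, 15.1 and 13.0 CPM in Cyp2b-null livers. These overlapped (log2 fold change -0.23 ± 0.16), and Cyp2b-null males were again the low group, with all 12 other libraries above them. The genotype difference in males exceeded that in females by 1.30 ± 0.24 on the log2 scale. The 7 Kupffer cell markers, which mark liver macrophages, had counts in all 16 libraries, and their sum was 313.7 to 384.2 CPM in hCYP2B6-Tg males, against 277.4 to 424.7 CPM in Cyp2b-null males. None of the 7 passed edgeR's test for genotype in males, at an unadjusted p under 0.05 either. In whole liver, fewer cells of a type and less RNA per cell cannot be told apart.

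Rhou encodes an atypical Cdc42-like GTPase that exchanges nucleotide without help, responds to Wnt signals and binds PAK1. In hCYP2B6-Tg females it had 85.0, 74.1, 73.1 and 66.2 CPM, against 105.0, 96.5, 101.7 and 97.3 CPM in Cyp2b-null females. The female groups did not overlap, in a direction in which 1.76% of tested genes separated, and the fold change was 0.745 (log2 -0.42 ± 0.09). The males had 94.2, 96.3, 117.4 and 92.0 CPM in hCYP2B6-Tg livers, against 99.5, 82.4, 93.2 and 97.1 CPM in Cyp2b-null livers. They overlapped (0.11 ± 0.09), and the highest library of the whole set was hCYP2B6-Tg male 4. The order was Cyp2b-null females, hCYP2B6-Tg males and Cyp2b-null males, which all overlapped, with hCYP2B6-Tg females at the bottom, overlapping the lowest Cyp2b-null male only.

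St5 encodes a DENN domain protein, known in human cells as an exchange factor for RAB13 and as a regulator of MAPK signalling. It had 22.2, 26.2, 24.1 and 24.2 CPM in hCYP2B6-Tg females, against 48.3, 33.1, 45.7 and 31.6 CPM in Cyp2b-null females. The groups did not overlap, in a direction in which 1.76% of tested genes separated, with a fold change of 0.612 (log2 -0.71 ± 0.14). The Cyp2b-null females split into 2 libraries above 45 CPM and 2 below 34. In males it had 25.2, 30.6, 28.7 and 21.1 CPM in hCYP2B6-Tg livers, against 33.0, 25.5, 23.7 and 29.6 CPM in Cyp2b-null livers. Those ranges nearly coincided (-0.08 ± 0.15, with a 95% interval of -0.36 to 0.21), and the sign turned in some of the other fits, which ran from -0.15 to 0.02. Cyp2b-null females were the high group, with their lowest library in the range of Cyp2b-null males, and the other 3 groups overlapped.

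Dlc1 encodes a GAP with a START domain that turns off RhoA, RhoB and RhoC, and its human form was named for its loss in liver cancer. Its values differed in opposite directions in the sexes. In males it had 61.7, 40.2, 42.8 and 39.7 CPM in hCYP2B6-Tg livers, against 64.6, 56.5, 67.1 and 57.0 CPM in Cyp2b-null livers. hCYP2B6-Tg male 2 lay among the Cyp2b-null males, while the other 3 lay below all of them. The log2 fold change in males was -0.42 ± 0.12, and it was -0.58 without hCYP2B6-Tg male 2. In females it had 62.8, 54.6, 58.4 and 68.7 CPM in hCYP2B6-Tg livers, against 48.3, 48.2, 51.5 and 51.3 CPM in Cyp2b-null livers. The female groups did not overlap, in a direction in which 1.74% of tested genes separated (log2 0.29 ± 0.12). Dlc1 is also made by endothelial cells, whose 7 sinusoidal markers summed to 208.8 to 284.6 CPM in hCYP2B6-Tg females, against 184.8 to 291.1 CPM in Cyp2b-null females. The same sum was 235.7 to 266.6 CPM in hCYP2B6-Tg males, against 213.4 to 252.5 CPM in Cyp2b-null males, and in neither sex did any of the 7 pass edgeR's adjusted threshold for genotype (1 in males and none in females had an unadjusted p under 0.05).

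Rassf3 encodes a Ras association domain protein, one of a family of scaffolds that bind active Ras-like GTPases and the MST kinases of the Hippo pathway. It had 87.0, 63.1, 50.6 and 55.9 CPM in hCYP2B6-Tg females, against 97.6, 91.5, 85.9 and 98.7 CPM in Cyp2b-null females. Only hCYP2B6-Tg female 1 reached the Cyp2b-null range, and the log2 fold change was -0.54 ± 0.12, or -0.72 without that library. In males it had 142.9, 144.8, 158.6 and 146.4 CPM in hCYP2B6-Tg livers, against 120.6, 140.9, 124.9 and 126.1 CPM in Cyp2b-null livers. The male groups did not overlap, in a direction in which 2.40% of tested genes separated. They differed the other way, by 0.21 ± 0.11 on the log2 scale. The 4 groups ran from hCYP2B6-Tg males through Cyp2b-null males and Cyp2b-null females to hCYP2B6-Tg females, and the last pair alone overlapped.

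**Figure D1:**
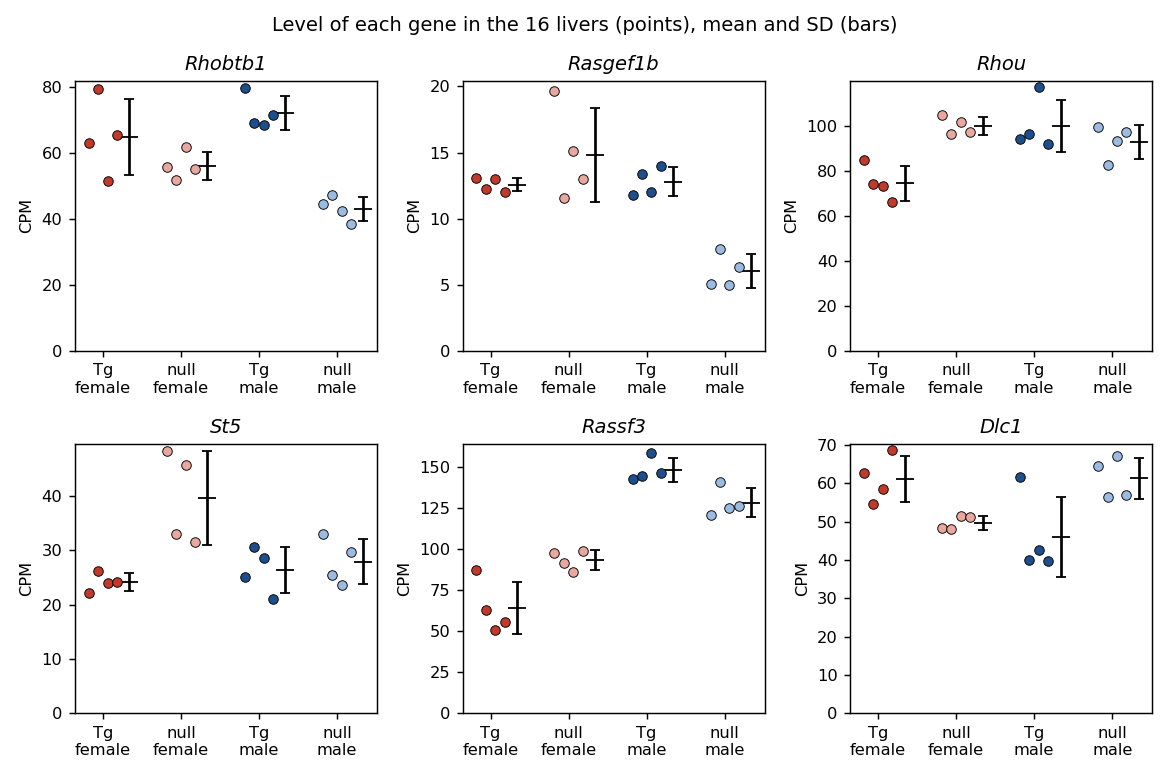
Level in CPM (vertical axes, from 0) of the 6 genes in each library (points) of the 4 groups (Tg, hCYP2B6-Tg; null, Cyp2b-null), with mean and SD (bars, n = 4). Cyp2b-null males are the low group for Rhobtb1 and Rasgef1b, hCYP2B6-Tg females for Rhou, and Cyp2b-null females are the high group for St5.

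As group means ± SD (n = 4 each), Rhobtb1 had 72.3 ± 5.23 CPM in hCYP2B6-Tg males and 43.1 ± 3.72 CPM in Cyp2b-null males. Rasgef1b averaged 12.8 ± 1.07 CPM in hCYP2B6-Tg males and 6.02 ± 1.28 CPM in Cyp2b-null males. In females Rhou averaged 74.6 ± 7.78 CPM in hCYP2B6-Tg and 100.1 ± 3.97 CPM in Cyp2b-null livers. These are differences of several SDs, in groups chosen for that. Within a group the coefficient of variation of the 6 genes ran from 3.63% (Dlc1 in Cyp2b-null females) to 25.1% (Rassf3 in hCYP2B6-Tg females). In the plot of genotype differences, 4 of the 6 genes have values of opposite sign in males and females (Rasgef1b, Rhou, Rassf3 and Dlc1). No share over all genes is given for this, so nothing is read from the count. The male and female contrasts share no library. The edgeR test over all genes called 15 genes in males (0.111%), 0 in females (0%) and 6 in the difference between the sexes (0.0445%), with 966, 1022 and 1037 genes at an unadjusted p under 0.05. By rank of p over the 13470 genes, Rhobtb1 and Rasgef1b were 1 and 2 in males, and St5, Rassf3 and Rhou were 3, 5 and 6 in females. Dlc1 was 14 in the difference. Nothing is read from these ranks, since they are what the genes were chosen by.

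**Figure D2:**
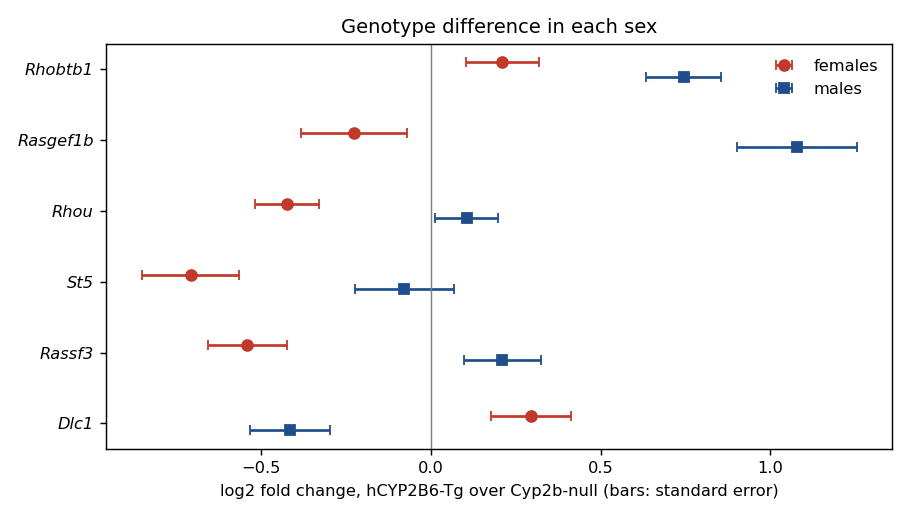
Log2 fold change of hCYP2B6-Tg over Cyp2b-null livers (horizontal axis) in females (red circles) and males (blue squares), with standard errors (n = 4 libraries a group). Rhobtb1 and Rasgef1b reach 0.74 and 1.08 in males, and St5, Rassf3 and Rhou reach -0.71, -0.54 and -0.42 in females.

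Set per kilobase of annotated exon, the levels of the genes formed a graded series. The lengths come from the annotation and not from the transcripts present in these livers, so comparisons between genes depend on it. In hCYP2B6-Tg males Rassf3 had 38.7 ± 1.85 CPM per kilobase, Rhou 26.3 ± 3.09 and Rhobtb1 11.9 ± 0.86 (SD, n = 4). In the same livers St5 had 4.60 ± 0.73, Dlc1 3.14 ± 0.72 and Rasgef1b 0.93 ± 0.08 CPM per kilobase. In hCYP2B6-Tg females Rhou had 19.6 ± 2.04 and Rassf3 16.8 ± 4.20 CPM per kilobase, which do not differ beyond their spread, and nor do St5 with 4.21 ± 0.29 and Dlc1 with 4.16 ± 0.41. Rasgef1b was lowest in all 4 groups. Exons of Rhobtb1 share 15 bases (0.247%) with A930033H14Rik and those of St5 share 68 bases (1.19%) with Gm44864, both on the opposite strand. Use of the strand in counting is not stated, so reads in those bases cannot be assigned.

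The difference between the sexes, averaged over the genotypes, is orthogonal to the genotype differences in this balanced layout and was tested. The test is not independent of the choice of genes, since it uses the same libraries and the same fit, with its estimate of spread. Of the 6 genes, 2 passed edgeR's quasi-likelihood test at a Benjamini-Hochberg adjusted p under 0.05, beside 17.0% of all 13470 genes. Rassf3 was lower and Rasgef1b was higher in females. Shares of all genes in those directions were 8.64% lower and 8.34% higher, and with 6 genes a count of 2 is not set apart from this background.

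Rassf3 averaged 78.8 ± 19.3 CPM in the 8 females and 138 ± 13.0 CPM in the 8 males (SD). The lowest, median and highest values were 50.6, 86.4 and 98.7 CPM in females, against 120.6, 141.9 and 158.6 CPM in males. All 8 females lay below all 8 males, as 2.60% of tested genes did. The log2 fold change was -0.83 ± 0.08 (edgeR adjusted p = 5.991e-08), with a 95% interval of -0.99 to -0.67. It was -1.21 within hCYP2B6-Tg and -0.46 within Cyp2b-null livers, and both values carry the genotype differences given above and were not tested against each other. It passed in all 16 fits without a library, at -0.92 to -0.78.

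Rasgef1b averaged 13.7 ± 2.63 CPM in females and 9.41 ± 3.78 CPM in males (SD, n = 8). The lowest, median and highest values were 11.5, 13.0 and 19.7 CPM in females, against 5.01, 9.73 and 14.0 CPM in males. The sexes overlapped, and hCYP2B6-Tg males lay among the females. The log2 fold change was 0.62 ± 0.12 (edgeR adjusted p = 0.0004949), and it passed in all 16 fits without a library, at 0.55 to 0.70. It was -0.03 within hCYP2B6-Tg and 1.28 within Cyp2b-null livers, so the averaged difference is carried by the low Cyp2b-null males. The same libraries carry the genotype difference for which Rasgef1b was chosen, so its sex result is no independent evidence. Kupffer markers moved with sex too. Of the 7, 3 were higher in females by edgeR's adjusted test and none was lower, and their sum was 385.0 to 669.4 CPM in females, against 277.4 to 424.7 CPM in males. Their part in the Rasgef1b result was not tested. In hCYP2B6-Tg livers the Kupffer sum was 401.3 to 545.9 CPM in females and 313.7 to 384.2 CPM in males, without overlap. The Rasgef1b difference there was the -0.03 given above. In Cyp2b-null livers the Kupffer sum was 385.0 to 669.4 CPM in females and 277.4 to 424.7 CPM in males, with overlap. The Rasgef1b difference there was 1.28. Both differences carry the genotype values by which the gene was chosen, and nothing about Kupffer cells is read from them.

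The other 4 genes did not pass for sex. Rhou had -0.16 ± 0.07 (edgeR adjusted p = 0.1053, 95% interval -0.29 to -0.03), and it passed at -0.19 (0.04572) without hCYP2B6-Tg female 1. St5 had 0.19 ± 0.10 (0.2214, interval -0.01 to 0.39). Rhobtb1 had 0.12 ± 0.08 (0.3353, interval -0.03 to 0.27) and Dlc1 had 0.06 ± 0.08 (0.7016, interval -0.11 to 0.22). The bound farthest from 0 among these intervals was 0.39. Within genotypes the 4 genes had values of opposite sign, such as 0.41 for Dlc1 in hCYP2B6-Tg livers and -0.30 in Cyp2b-null livers. Single genes of other marker lists also moved with sex. Cfd, the only 1 of 5 fat cell markers above the filter on low counts, had at most 0.313 CPM in females, against 4.19 to 29.9 CPM in males. Of 3 red cell markers Alas2 alone passed, at 15.9 ± 2.25 CPM in females and 102 ± 11.9 CPM in males (edgeR adjusted p = 2.068e-17), while the globins Hba-a1 and Hbb-bt did not (0.4168 and 0.425). The 7 stellate cell markers summed to 288.5 to 346.9 CPM in females, against 233.6 to 315.1 CPM in males, with 2 of 7 higher by the test. Of the 7 hepatocyte markers, 1 was higher in females by the test, Alb at 0.23 ± 0.06 on the log2 scale. Another 2 were lower, Ttr at -0.16 ± 0.05 and Serpina1c at -0.59 ± 0.07. The part of all these markers in the sex differences was not tested.

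**Figure D3:**
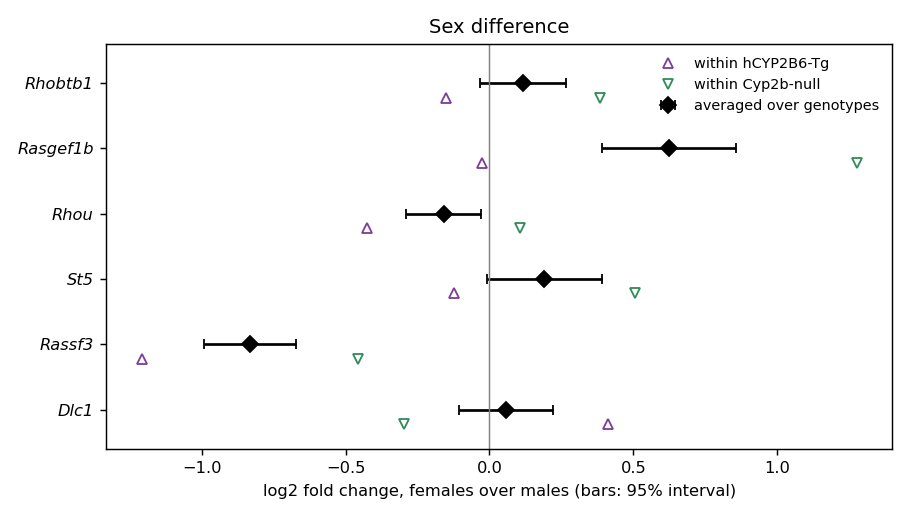
Log2 fold change of females over males (horizontal axis), averaged over the genotypes (diamonds, with 95% intervals), and within hCYP2B6-Tg (upward triangles) and Cyp2b-null livers (downward triangles, no test). Rassf3 is at -0.83 and Rasgef1b at 0.62, and the triangles lie on both sides of 0 for every gene but Rassf3.

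Close relatives and partners of the 6 genes were measured beside them. For Rhobtb1, the family members Rhobtb2 and Rhobtb3 and the ligase scaffold Cul3 did not pass for genotype in males, at 0.12 ± 0.21, 0.22 ± 0.21 and -0.06 ± 0.09 on the log2 scale. Rhobtb2 averaged 7.81 ± 1.05 CPM in hCYP2B6-Tg males and 7.19 ± 2.11 CPM in Cyp2b-null males. For Rasgef1b, the family members Rasgef1a and Rasgef1c had 3 counts and 1 count in all 16 libraries together. Its target GTPases Rap2a, Rap2b and Rap2c were measured at -0.21 ± 0.13, 0.39 ± 0.30 and 0.07 ± 0.11 for genotype in males, and none passed. Rap2a was lower in females, at 23.0 ± 3.0 CPM against 30.0 ± 4.00 CPM in males (log2 -0.38 ± 0.09, edgeR adjusted p = 0.004888), the direction opposite to that of Rasgef1b. Rap2b had 0.47 ± 0.20 for sex, the direction of Rasgef1b, and Rap2c had -0.03 ± 0.08. Neither passed (edgeR adjusted p = 0.1135 and 0.8629).

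For Rhou, the closest family member Rhov had 2 counts in all. Cdc42 averaged 132 ± 6.20 CPM in hCYP2B6-Tg females and 137 ± 10.9 CPM in Cyp2b-null females, a log2 fold change of -0.05 ± 0.08. For St5, Dennd2a and Dennd2d had -0.05 ± 0.24 and -0.17 ± 0.20 in females, and Dennd2c had 73 counts in all and was below the filter. For Dlc1, the related GAP Stard13 had 15.5 ± 0.498 CPM in hCYP2B6-Tg females and 11.9 ± 3.35 CPM in Cyp2b-null females, and 0.38 ± 0.17 did not pass (adjusted p = 0.6215). The related Stard8 was higher in females than in males (12.8 ± 1.34 against 9.44 ± 1.47 CPM, log2 0.44 ± 0.11, edgeR adjusted p = 0.006238). The targets of Dlc1, Rhoa, Rhob and Rhoc, did not pass for genotype in either sex. For Rassf3, the related Rassf1 and Rassf5 and the MST kinases Stk3 and Stk4 did not pass for sex, and ran from -0.25 to 0.29.

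The 11 lists of RhoA-family, Ras and Rap GTPases, their regulators and their effectors held 279 further genes, of which 278 had a row and 233 passed the filter on low counts. By edgeR's test none of the 233 passed for genotype in males (25 at an unadjusted p under 0.05) and none in females (15), and DESeq2 and limma voom also called none. Over all genes, 7.17% in males and 7.59% in females had an unadjusted p under 0.05. The genes with the smallest p in males were Arhgef19, an exchange factor for RhoA, with 49.4 ± 9.37 CPM in hCYP2B6-Tg males and 67.4 ± 10.2 CPM in Cyp2b-null males (adjusted p = 0.3069), and Arhgap32, a GAP of the RhoA family, with 11.4 ± 3.02 and 17.2 ± 1.77 CPM in those groups (0.37). In females they were Rapgef4, the cyclic AMP sensor EPAC2 that loads Rap1, with 161 ± 35.0 CPM in hCYP2B6-Tg and 107 ± 22.4 CPM in Cyp2b-null livers (0.4478), and Arhgap24, a Rac GAP, with 9.52 ± 0.913 CPM in hCYP2B6-Tg and 13.5 ± 1.35 CPM in Cyp2b-null livers (0.4928). Rapgef4 in males had 117 ± 16.2 CPM in hCYP2B6-Tg and 145 ± 11.7 CPM in Cyp2b-null livers. Rapgef4 and Cdc42ep4, a Cdc42 effector, had the smallest p for the difference between the sexes, at -0.90 ± 0.23 and 0.49 ± 0.14 (0.324 and 0.3381), and did not pass.

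For sex, 35 of the 233 list genes passed, 22 higher and 13 lower in females, which is 15.0% beside the 17.0% of all genes. The median log2 fold change of the 233 was 0.06, against 0.01 over all genes. Exchange factors of the RhoA family gave 15 of 55 (7 higher, 8 lower), among them Dock8, at 31.9 ± 5.80 CPM in females and 47.7 ± 7.54 CPM in males (adjusted p = 0.0001465). GAPs of that family gave 5 of 41, all higher in females, among them Srgap3, at 4.58 ± 1.67 CPM in females and 1.99 ± 0.861 CPM in males (0.004174), and Stard8. The GTPases Rnd1, which opposes RhoA, and Rac2, a form of blood cells, were the 2 of 15 that passed, by 1.16 ± 0.21 and 0.78 ± 0.17, both higher in females. Effectors of the family gave 3 of 29, all higher. Baiap2, which bends membranes downstream of Cdc42 and Rac, had 35.2 ± 5.23 CPM in females and 17.9 ± 2.74 CPM in males (9.161e-08), and the kinase Pak1 had 3.84 ± 1.22 and 2.11 ± 0.957 CPM (0.02616). Arhgdia, a GDP dissociation inhibitor that holds RhoA-family proteins in the cytosol, was higher in females by 0.37 ± 0.07 (0.0004256).

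On the Ras and Rap side, 2 of 17 GTPases passed, both lower in females: Rap2a and Rheb, the activator of mTORC1, at -0.20 ± 0.07 (edgeR adjusted p = 0.03552). Of 18 exchange factors, Rgl3 was higher by 0.40 ± 0.10 and Ralgps1 lower by a log2 value of -0.70 ± 0.19 in females (0.006703 and 0.01248). Of 19 GAPs and related inhibitors, Spred1, which recruits neurofibromin to Ras, and Sipa1, a Rap GAP, were higher by 0.43 ± 0.09 and 0.54 ± 0.12 (0.001142 and 0.00176). Of 13 RASSF and MST kinase genes other than Rassf3, Mob1b, an adaptor of the Hippo kinases, was lower at -0.47 ± 0.09 (0.000965). Of 17 DENN domain genes other than St5, Dennd4a was lower at -0.39 ± 0.10 and Dennd1c higher at 0.76 ± 0.22 (0.009059 and 0.01901). None of 7 core genes of the CUL3 ligase passed, and all 7 were below 0, with a median of -0.14 and 3 at an unadjusted p under 0.05, beside 29.4% of all genes. Rac2 and Dock8 are known from blood cells. Rac2 was higher in females, as the Kupffer markers were, and Dock8 was lower. The link of either gene to those markers was not tested.

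**Figure D4:**
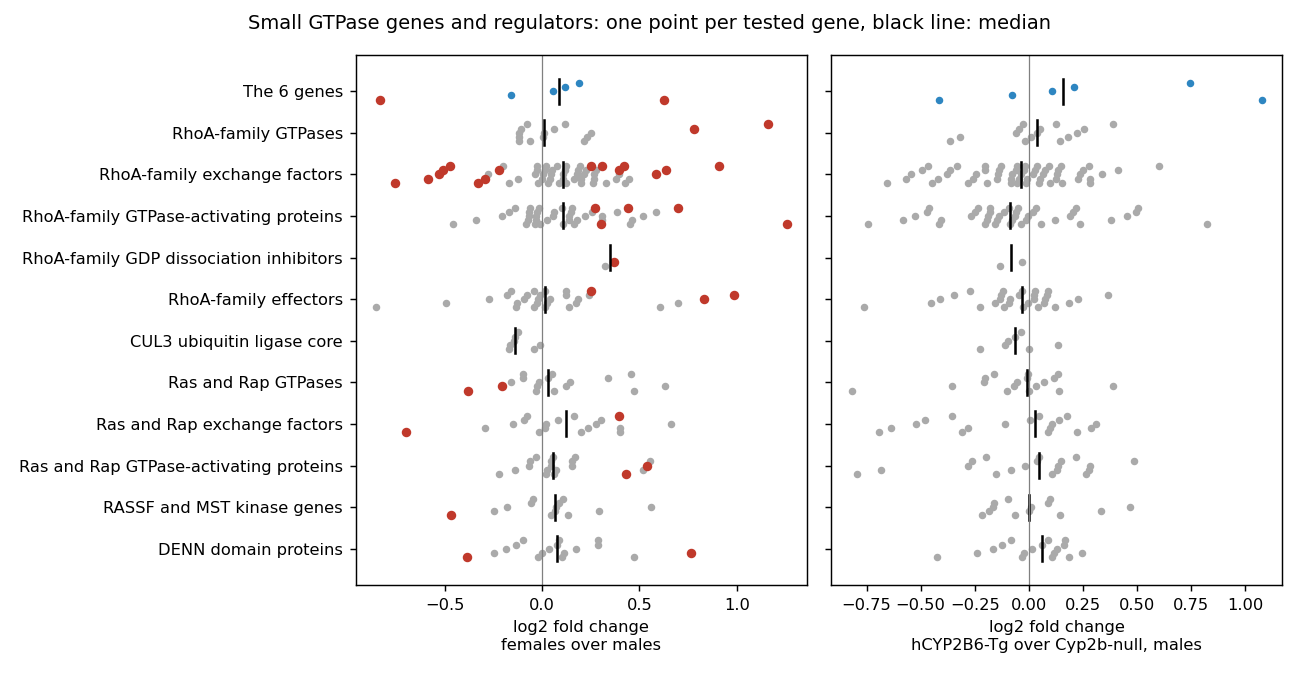
Log2 fold change of each tested gene (points) by list, females over males (left) and hCYP2B6-Tg over Cyp2b-null males (right), with the median of each list as a black line. Red points passed edgeR's adjusted threshold, 35 list genes and 2 of the 6 genes for sex and no list gene for genotype, and blue points are the rest of the 6 genes on the left and all 6 on the right, where they are shown as a description without their calls.

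The tested genes whose levels followed each of the 6 most closely over the 16 libraries were found by the root mean square (RMS) difference of log2 CPM after centring each gene, among 11444 candidates. Near Rhobtb1, whose own RMS deviation was 0.31, were Klf13, Trp53bp2 and Eno1b at 0.18 to 0.19. Near Rasgef1b (own deviation 0.53) were Igfbp3, Mapre2 and Ccdc141 at 0.25 to 0.32. Igfbp3, which binds insulin-like growth factors in blood, averaged 13.4 CPM in hCYP2B6-Tg males and 8.89 CPM in Cyp2b-null males. Near Rhou (0.21) were Lrrc58, Dynll2 and Ranbp6 at 0.12. Near St5 (0.33) were Syne1, Atxn1 and Tab2 at 0.14 to 0.19, and Syne1, a nuclear envelope protein tied to actin, averaged 33.0 CPM in hCYP2B6-Tg females and 56.7 CPM in Cyp2b-null females. Near Rassf3 (0.50) were Hnmt, Aldh1a7 and Tdo2 at 0.21 to 0.23. Tdo2, the tryptophan-degrading enzyme of hepatocytes, averaged 1034 CPM in hCYP2B6-Tg females, 1200 in Cyp2b-null females, 1812 in hCYP2B6-Tg males and 1642 in Cyp2b-null males, the same order of groups as Rassf3. Near Dlc1 (0.24) were Rfxap, Mrpl46 and Tapbpl at 0.15 to 0.16. Among the 6, Rhou and St5 were the closest pair at 0.28 and Rasgef1b and Rassf3 the farthest at 0.83. These values describe the same 16 libraries in which the genotype differences were seen.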

How the data were processed

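The deposited table holds raw read counts per gene and library, made by the authors. Tools listed without versions in the submitters' processing notes are GSNAP and Subread, with Trimmomatic, FastQC and edgeR, and the listed build is GRCm38.p6. Per the labels' protocols, RNA was extracted with Trizol from frozen livers. Whether counting used the strand and how multiply mapped reads were treated are not stated in those notes or labels. Each of the 16 value columns matched a library title.

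Genes were filtered with edgeR 4.0.16 (filterByExpr by group), which left 13470. Counts were scaled by TMM and tested in a single fit of the 4 groups with glmQLFit (robust, current form) and glmQLFTest, with two-sided p-values adjusted by Benjamini-Hochberg over all 13470 genes and a threshold of 0.05. CPM use TMM library sizes. The fit was tested on simulated data. Intervals are 1.96 standard errors. Alternatives were RLE scaling, library totals, other filters, DESeq2 1.42.0, limma 3.58.1 voom, a replicate block, left-out libraries and fits of each sex. The older form of the quasi-likelihood fit was added after seeing the data.

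The 6 genes and the lists were chosen with earlier results of these data known. The pathway lists and relatives were written from gene families, not from how their genes moved. Named list genes are, for sex, up to 2 per list with the smallest p among those that passed, and for genotype the 2 with the smallest p. A list gene that this rule would name is not reported here. Exon lengths come from GENCODE M21. Promoter sequences are from RefSeq (GRCm38.p6).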

Additional observations from a re-analysis of the deposited data

Results flagged for a closer look

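In 24 sets of 4 libraries (6 genes in 4 groups), 2 held a library far from the other 3 by Dixon's criterion, which chance gives in about 1 of 20 sets. Rhou had 117.4 CPM in hCYP2B6-Tg male 4, with a gap to the next library of 0.83 of the range of its group. Without that library, the log2 fold change of Rhou between the genotypes in males was 0.02, against 0.11 with it. Dlc1 had 61.7 CPM in hCYP2B6-Tg male 2, with a gap of 0.858 of the range, and the genotype difference in males was -0.58 without it and -0.42 with it.

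The genotype difference of Rasgef1b was larger in males than in females by 1.30 on the log2 scale (1.08 in males and -0.23 in females). It stood among the 6 genes of 13470 (0.0445%) called for that difference by edgeR. No gene was called for it with library totals only, without hCYP2B6-Tg male 4 and Cyp2b-null male 4, or in 10 of the 16 fits without a library. Rasgef1b was chosen with this value known, so it is no independent evidence.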

How the results depend on the processing

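The sex differences of Rassf3 and Rasgef1b passed under all 10 other settings and all 16 left-out libraries, at -0.92 to -0.78 and 0.55 to 0.70. No genotype or sex value of the 6 genes changed sign except that of St5 in males (-0.15 to 0.02, near 0 throughout). The sex count of 2288 genes ran from 1822 to 2398, and that of list genes (35) from 24 to 35.

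Counts for genotype moved more. In males the 15 genes became 43 with DESeq2, 26 in the fit of males alone, 28 without 3 libraries (Cyp2b-null females 1 and 3 and hCYP2B6-Tg male 4), 6 with limma voom and 0 without hCYP2B6-Tg male 4 and Cyp2b-null male 4. They ran from 2 to 24 over the left-out libraries. In females the 0 genes became 12 with DESeq2 and 2 with no filter, and ran from 0 to 1. For the difference between the sexes the 6 genes became 16 with DESeq2, 3 with limma voom and 0 both with library totals only and without hCYP2B6-Tg male 4 and Cyp2b-null male 4, and ran from 0 to 12. The cause was not tested.

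Replicate numbers showed no strong pairing of the libraries: deviations of same-numbered libraries correlated at -0.06 to 0.07 within the sexes. So few pairs cannot exclude a weaker pairing. With the replicate block, 5 genes passed in males and 2 in females, and Rassf3 had -0.86 and Rasgef1b 0.58 for sex. Library depth limits Rasgef1b most, at 28 counts in its lowest library.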
